A study of Mus musculus with 33 samples.

Results

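The onset of hair follicle regression in the natural cycle was examined by comparing dorsal skin in early catagen with dorsal skin in late anagen. Early catagen was represented by the 6 arrays of postnatal days 37 and 39 (P37 and P39, 3 arrays each) and late anagen by the 3 arrays of day 29 (P29), which are 9 of the 33 arrays of the series. Arrays were assigned by the day in their labels, and the phase of each day is the one the series' description gives from morphology. All 9 mice were wild-type C57BL/6, with 1 mouse for each array and no depilation. The late anagen mice were 1 male and 2 females and the early catagen mice 3 males and 3 females. Since the later phase is also the later age, phase and age cannot be told apart in this comparison. Beside it stand the 6 arrays of the same change of phase after depilation, which came from other mice, adult and all female, waxed in telogen: 4 arrays of days 8 and 12 after depilation (D8 and D12, late anagen) and 2 arrays of day 17 (D17, early catagen). These phases are those of the series' description, while the source labels of all depilation arrays, and those of the 3 arrays of day 41 (P41, mid catagen in the description), read early anagen. The single array of day 34 (P34), which the series also counts as late anagen, was kept out of the comparison and is given as a value.

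In anagen the matrix keratinocytes at the base of the follicle divide rapidly around the dermal papilla, a cluster of signalling fibroblasts, and their daughters become the hair shaft and the inner root sheath while melanocytes of the bulb supply pigment. Catagen is the regression that ends this growth: division in the matrix stops, melanin synthesis ceases, the lower follicle is lost largely by apoptosis, and the papilla is drawn up towards the stem cells of the bulge. Fgf5, TGF-beta family ligands and the nuclear protein Hairless are known promoters of this change, and Shh, Wnt10b and Kit ligand belong to the growing bulb. The material was whole skin, so that a lower signal from fewer cells of a type and one from less RNA per cell cannot be told apart. Epidermal and follicular keratins were present on all arrays. The basal keratin Krt5 had signals of 16736 to 18622 at P29 and 20153 to 28612 in early catagen. It was thus itself higher in early catagen, by 0.37 on the log2 scale (standard error 0.13).

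No probe set separated the phases at the level the test asks. In limma's moderated test with Benjamini-Hochberg adjustment, 0 of 26988 probe sets (0%) had an adjusted p under 0.05 in early catagen against late anagen, and the smallest adjusted p was 0.0573. At an unadjusted p under 0.05 there were 3596 probe sets, 1688 of them higher and 1908 lower in early catagen. A one-way ANOVA, the kind of test in the study's methods, was run on the same log2 signals of all these probe sets. It gave 0 after the same adjustment and 1000 at an unadjusted p under 0.01, 510 higher and 490 lower. The study applied its ANOVA to differently transformed values and only to its hair cycle-regulated genes, so these counts are not its result. The difference was therefore described gene by gene, by log2 differences with their standard errors (SE) and by whether the arrays of the groups overlapped. Of 12867 genes, each read from 1 probe set, 552 (4.29%) were higher on all 6 early catagen arrays than on all 3 late anagen arrays and 503 (3.91%) were lower on all of them. With the arrays centred on their medians these counts were 666 and 402. At an unadjusted p under 0.05, 954 genes (7.41%) were higher and 798 (6.2%) lower. The median difference over all probe sets was -0.01 on the log2 scale, and 57 genes were higher and 42 lower by more than 1 log2 unit. Counts of gene list members below are read against these shares.

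The 6 early catagen arrays were not alike. The mean log2 signal of the mitosis genes, relative to P29, was -0.45, -1.02 and -0.38 on the P37 arrays and -0.84, -0.21 and -0.18 on the P39 arrays. P37 replicate 2 and P39 replicate 1 thus lay farthest from late anagen, and the later day did not hold the lower values. P39 replicate 2 stood apart in another way: its signals of the epidermal differentiation genes Krt1, Krt10 and Lor were 716, 3728 and 3051, under those of all other early catagen and P29 arrays. Without P39 replicate 2 the genes higher on all remaining early catagen arrays numbered 909 and the lower ones 687. Without P37 replicate 2 the shares were 4.66% of all genes higher and 4.41% lower. Without P29 replicates 1, 2 and 3 in turn there were 912, 1143 and 864 higher and 839, 1033 and 941 lower genes. Leaving out an array can only add genes to these counts, so a rise alone does not mark an array as unlike the others. After depilation D12 replicate 2, late anagen by its day, lay under both D17 arrays in the mean of the mitosis genes (-0.51 against -0.29 and 0.05) and of the DNA replication genes (-0.44 against -0.35 and 0.09). The depilation arrays thus did not follow their days in these lists, and the values after depilation are given with and without single arrays, a choice made after seeing the data.

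The 12 genes with the largest differences upwards were named by a rule of size among the genes that were apart. Amtn, which encodes amelotin, a secreted protein best known from the enamel-forming epithelium, had signals of 46.4, 40.8 and 11.2 at P29 and between 241 and 1618, with a median of 679.6, in early catagen. The groups did not overlap, and the log2 difference was at least 4.02 (SE 0.61, adjusted p 0.0932), a bound because 1 late anagen array lay under the floor of 34.6. Spink12, a member of the Kazal family of serine protease inhibitors, stood at 66.3, 159 and 143 at P29 and between 408 and 1034 in early catagen (median 569), a difference of 2.41 (SE 0.37, adjusted p 0.0963). Sprr2h, a small proline-rich protein of the cornified envelope, was at 2247, 4709.9 and 3878 against 7874 to 15303 (median 10598), a difference of 1.67 (SE 0.26, adjusted p 0.0954). The probe set used is of a kind that can match several transcripts, so which member of this family it reads is uncertain. At mid catagen all 3 genes were under their early catagen range, since the mean of the 3 P41 arrays was 154 for Amtn, 326 for Spink12 and 1939 for Sprr2h. Scgb1a1, a secretoglobin, was among the features of smallest adjusted p: its signals were 115, 174 and 137 at P29 and 376 to 789 in early catagen (median 504), a difference of 1.87 (SE 0.24, adjusted p 0.0573).

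The other 8 genes with the largest differences upwards had adjusted p values between 0.103 and 0.22. S100a9, a calcium-binding alarmin of neutrophils and stressed keratinocytes, was higher by 1.95 (SE 0.53), Aldh1a2, which makes retinoic acid, by 1.76 (SE 0.32), and Nlrp10, a NOD-like receptor protein found in keratinocytes, by 1.59 (SE 0.25). Thbs1, treated below with the regulators, was higher by 1.38. Olr1, a scavenger receptor for oxidized lipoprotein, Pigz, Adarb1 and AA467197 had 1 to 3 late anagen arrays under the floor, so that their differences of 1.72, 1.47, 1.38 and 1.41 are lower bounds. The groups did not overlap for any of the 12, as the naming rule required.

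**Figure D1:**
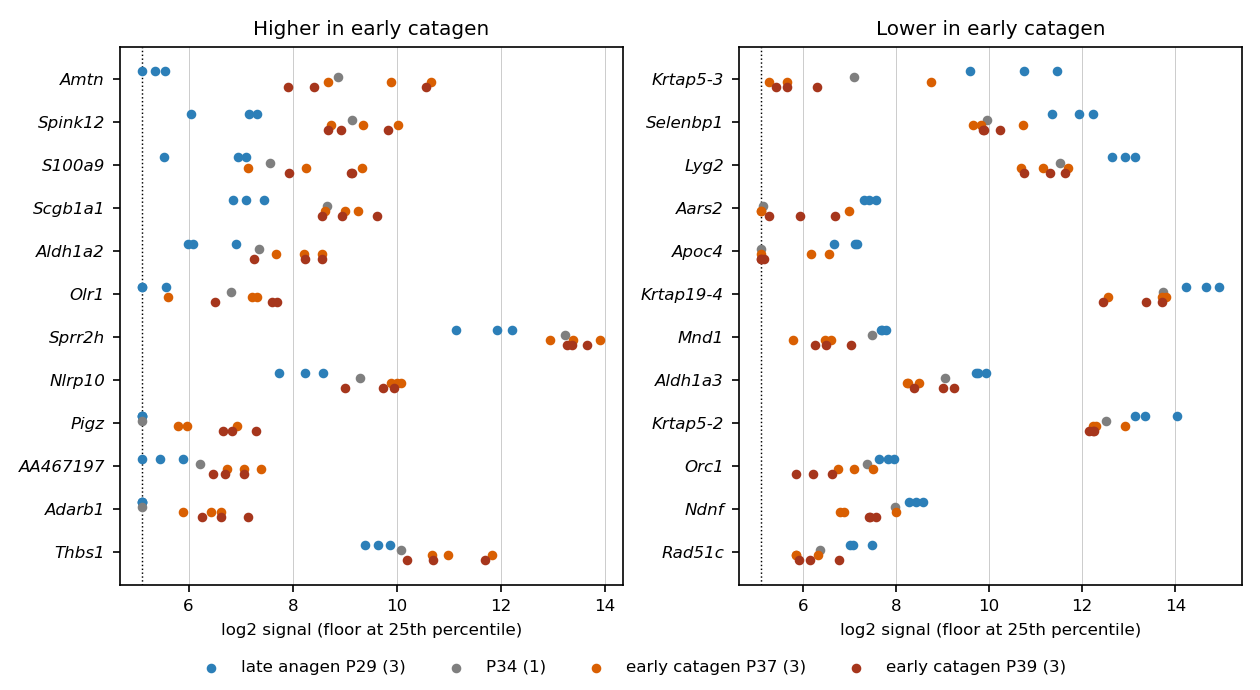
The 12 genes with the largest differences in each direction, with the log2 signal on the horizontal axis and 1 point for each array of P29, P34, P37 and P39; the dotted line is the floor. No P29 point lies among the P37 and P39 points of the same gene, as the naming rule required. The P34 point lies on the early catagen side or between the groups for most genes, a position that this choice of genes favours.

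The 12 genes with the largest differences downwards were named by the same rule. Krtap5-3, a keratin-associated protein of the hair cuticle, had signals of 2829.5, 766 and 1722 at P29 and between 38.8 and 431 in early catagen, with a median of 50.8. The groups did not overlap, and the difference was -4.42 (SE 0.74, adjusted p 0.11). Keratin-associated protein genes are near-identical within families, so which member a probe set reads is uncertain. Selenbp1, a selenium-binding methanethiol oxidase, was at 4811, 2606 and 3936 against 807 to 1688 (median 947), a difference of -1.80 (SE 0.26, adjusted p 0.0763). Lyg2, a goose-type lysozyme, was at 8985, 6341 and 7763 against 1653 to 3338 (median 2415), a difference of -1.69 (SE 0.24, adjusted p 0.0865). The keratin-associated protein genes Krtap19-4 and Krtap5-2 differed by -1.34 and -1.16. Mnd1, Orc1 and Rad51c, which serve homologous recombination, replication origins and double-strand break repair, differed by -1.28, -1.13 and -1.05. Aldh1a3, the retinaldehyde dehydrogenase, differed by -1.19 (SE 0.23), opposite in direction to its paralog Aldh1a2. Ndnf, a secreted factor of the papilla list, differed by -1.08. The differences of Aars2 and Apoc4, -1.59 and -1.45, are bounds, with 2 and 3 early catagen arrays under the floor. The adjusted p of these 9 genes lay between 0.135 and 0.23.

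The P34 array was set beside both groups for these genes. For 11 of the 12 largest differences downwards the P34 signal lay within the early catagen range or beyond it, and that of Mnd1 lay between the groups. For the 12 largest differences upwards the P34 signal lay there for 8, between the groups for AA467197 and Thbs1 and with P29 for Pigz and Adarb1. Over all genes whose groups did not overlap, P34 lay within or beyond the early catagen range for 342 of the 552 higher genes (62%) and 292 of the 503 lower genes (58.1%), and with P29 for 125 and 121. The share differed between gene lists, but members of a list read on the same array are not independent of each other. Of the 7 hair shaft genes lower in early catagen 6 were at the early catagen level at P34, and of the 25 mitosis genes 12 were. Of the 5 macrophage genes higher and apart in early catagen 0 were, and 4 lay with P29. These are positions of 1 array, with no test.

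Genes of cell division were lower almost without exception. Of 49 measured members of the mitosis list, 48 were lower in early catagen, with a median difference of -0.51 on the log2 scale and a range from -0.81 to 0.02. The arrays did not overlap for 25 of them, all lower, and 31 had an unadjusted p under 0.05, all lower. Without P37 replicate 2, the array farthest from late anagen, the median was -0.42, and the members with an unadjusted p under 0.05 numbered 26 against 31, all lower. Mad2l1, a sensor of the spindle checkpoint, was at 1303, 1219 and 1357 at P29 and between 512 and 1099.7 in early catagen (median 770.4), a difference of -0.78 (SE 0.22, adjusted p 0.231). Cdca8, a subunit of the chromosomal passenger complex, was at 1046, 879 and 865 against 409.5 to 741 (median 595). Smc4, a condensin subunit, differed by -0.47 (SE 0.12, adjusted p 0.208). The groups were apart for all of these genes, and the lowest signal of each was on P37 replicate 2.

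The promoters of the mitosis genes were searched for motifs of cell cycle control, the CCAAT box (CCAAT) that NF-Y reads and the core of the cell cycle homology region (TTTGAA). Of the 49 members 39 matched a gene in the RefSeq promoter table (GRCm38.p6), whose sequences run from 250 bases before the start to 50 after it. CCAAT was found on either strand in 29 of the 39 (74.4%), against 37.9% of all 27025 promoters. TTTGAA was found in 28 (71.8%), against 18.1%. A match is a description of these letters and no evidence of a site. The following lines give the 160 bases before the start, in the direction of transcription, for the 3 members of smallest p that hold both motifs there, with the motifs of either strand in capitals. Genes of a single chromosome were kept out of this choice. The windows are chr7:135716380-135716539 on the minus strand for Mki67, chr10:69352913-69353072 on the minus strand for Cdk1 and chr4:52439061-52439220 on the plus strand for Smc2.
Mki67: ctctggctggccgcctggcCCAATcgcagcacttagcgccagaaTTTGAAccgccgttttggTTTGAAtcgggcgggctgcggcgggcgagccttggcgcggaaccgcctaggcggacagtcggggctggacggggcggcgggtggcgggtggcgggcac
Cdk1: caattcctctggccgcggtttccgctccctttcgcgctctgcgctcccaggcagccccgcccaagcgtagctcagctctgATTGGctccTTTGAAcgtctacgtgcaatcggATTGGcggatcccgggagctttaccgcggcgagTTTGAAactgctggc
Smc2: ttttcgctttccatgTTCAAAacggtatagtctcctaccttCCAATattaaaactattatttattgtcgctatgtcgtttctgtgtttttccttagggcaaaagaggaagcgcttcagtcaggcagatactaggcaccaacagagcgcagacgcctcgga

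The 3 genes with these promoters were chosen for their small p, so that their groups being apart is no finding. Mki67, the proliferation antigen, was at 4818, 4323 and 4043 at P29 and between 1849.5 and 3351 in early catagen (median 2987), a difference of -0.68 (SE 0.20). Cdk1, the kinase that drives entry into mitosis, was at 1665, 1867 and 1652 against 942 to 1442 (median 1312), a difference of -0.52 (SE 0.16). Smc2, a condensin subunit, was at 1746, 1451 and 1761 against 825 to 1436 (median 1242), a difference of -0.51 (SE 0.20). None of the 3 overlapped between the groups, and their P41 means were lower again, at 749, 304 and 551. At P34 the signals were 3903 for Mki67 and 1648 for Cdk1, between the groups, and 1426 for Smc2, within the early catagen range.

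DNA replication genes followed with smaller differences. Of 42 measured members 41 were lower, with a median of -0.40, and 13 were apart, all lower. Orc6, a subunit of the origin recognition complex, was at 558, 585 and 662 at P29 and between 403 and 469 in early catagen, a difference of -0.42 (SE 0.10). Rfc3, a subunit of the clamp loader, differed by -0.45 (SE 0.12), and Orc1, the largest difference in the list, by -1.13 (SE 0.31). Orc1 was lower on the P39 arrays (58.2 to 98.5) than on the P37 arrays (107.5 to 181), against 198 to 248 at P29. Ribosome biogenesis genes lay lower as well, with a median of -0.20 over 32 members, but 1 was apart and 2 had an unadjusted p under 0.05.

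Most pigment genes lay lower, and their list mean was lowest on the same 2 early catagen arrays as that of the mitosis genes. Of 22 measured members 18 were lower, with a median of -0.56, and 6 were apart, all lower. Tyr, the rate-limiting enzyme of melanin synthesis, was at 2764, 2687 and 2359.5 at P29 and between 512 and 2129 in early catagen, with a median of 1563. Its difference was -1.04 (SE 0.43, adjusted p 0.344), and the 512 was on P37 replicate 2 and the next lowest, 776, on P39 replicate 1. Oca2, a melanosomal transporter, was at 1116, 1183 and 916 against 240.2 to 890.0 (median 576), a difference of -1.08 (SE 0.41). Ednrb, the endothelin receptor of melanocytes, differed by -0.46 (SE 0.16). Mc1r, the melanocortin receptor, was at 295, 316 and 264 against 99.4 to 268 and overlapped. The list mean relative to P29 was -1.20 on P37 replicate 2 and -0.99 on P39 replicate 1, and between -0.32 and -0.07 on the other 4 early catagen arrays. At P41 the mean over the pigment cells list was -2.44 to -2.24. Without P39 replicate 2 the pigment genes apart and lower numbered 12, against 5.34% of all genes, and without P37 replicate 2 the median was -0.46 and 5 members, against 7 with it, had an unadjusted p under 0.05. Pmel, the amyloid protein of melanosomes, differed by -0.97 (SE 0.40).

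**Figure D2:**
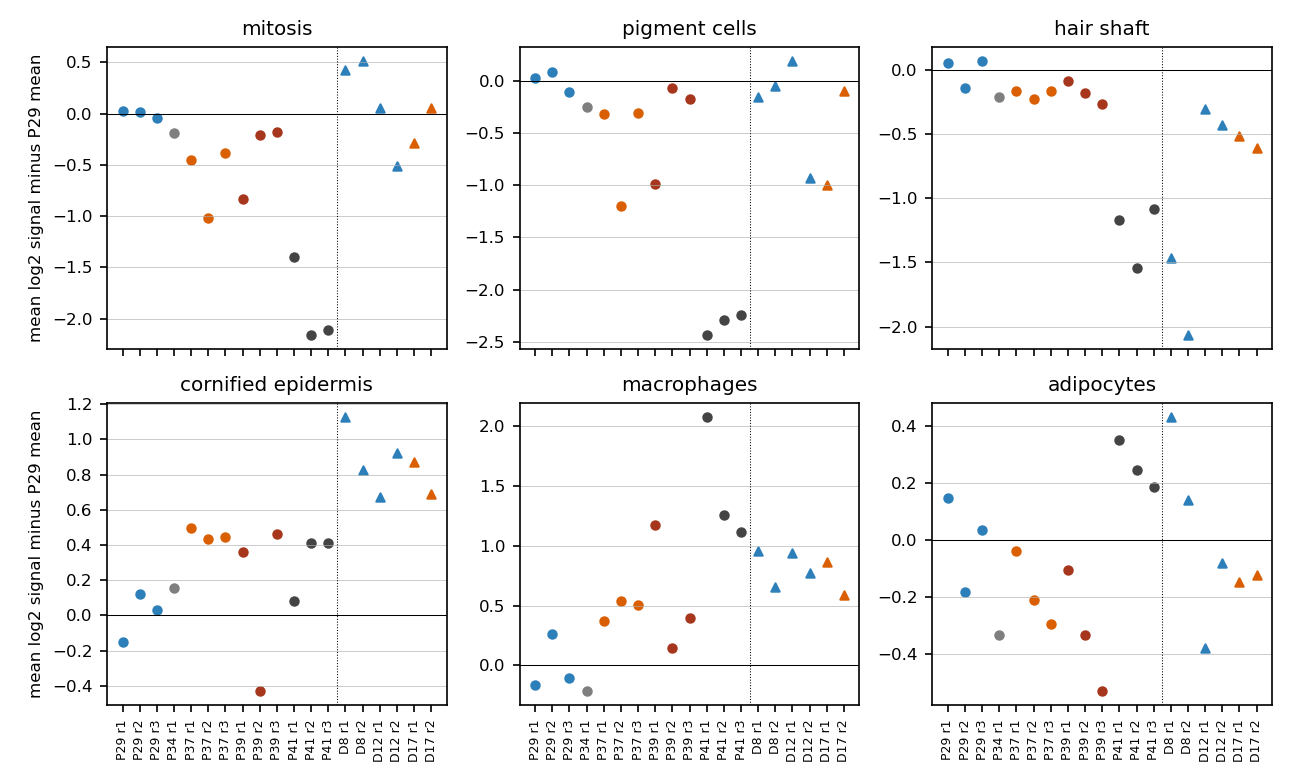
Mean log2 signal of the members of 6 gene lists on each array, relative to the mean of the P29 arrays; circles are natural-cycle arrays, triangles arrays after depilation, and r is the replicate. The mitosis and pigment means are lowest in early catagen on P37 replicate 2 and P39 replicate 1, the cornified epidermis mean is below 0 on P39 replicate 2, and D12 replicate 2 lies with D17 replicate 1 in mitosis and pigment genes.

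Of 40 measured hair shaft genes 31 lay lower in early catagen and of 23 inner root sheath genes 17 lay higher. Of the hair shaft genes 7 were apart and lower and 2 apart and higher, with a median of -0.11. The list ran from -1.80, the difference of Selenbp1, to 0.50, and Krtap5-3 was not in it. Krt35, an early hair keratin of the matrix and cuticle, was at 17335, 15199 and 16678 at P29 and between 11236 and 13447 in early catagen, a difference of -0.41 (SE 0.10). Krt36 and Krt82 differed by -0.54 and -0.45, and were apart. Krtap4-7, of a family expressed in the late hair cortex, lay the other way: its signals were 18186, 18052 and 22313 at P29 and 22515 to 27974 in early catagen, a difference of 0.34 (SE 0.12). These last 3 genes were chosen after their values were seen. The inner root sheath genes had a median of 0.08, with 3 apart, all higher. Padi1, a deiminase that modifies trichohyalin, was at 2192, 3598 and 2944 at P29 and 3939 to 5090.4 in early catagen, a difference of 0.72 (SE 0.15). Krt72, a keratin of the sheath cuticle, differed by 0.49 (SE 0.14) and Cdsn, the corneodesmosome protein, by 0.33 (SE 0.10). At P41 the mean signal was 2236 for Krt35 and 6330.0 for Krt72.

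Of 16 keratins of the companion layer and of stressed epithelium 12 lay higher and 4 lower. In this list 5 were apart and higher and 1 apart and lower, and 4 higher and 1 lower gene had an unadjusted p under 0.05. Krt16 was at 1180.3, 1180.0 and 976 at P29 and between 1793 and 2282 in early catagen (median 1962), a difference of 0.83 (SE 0.11, adjusted p 0.0573). Its 6 early catagen values lay close together, and its P41 mean was 7927. Krt6a, a keratin of the companion layer, was at 9595, 12582 and 12155 against 15818 to 20301 (median 17707), a difference of 0.64 (SE 0.13). Krt8, a keratin of simple epithelia, lay the other way, at 345, 415 and 393 against 142 to 276, a difference of -0.93 (SE 0.22).

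Cornified epidermis genes were higher on 5 of the 6 arrays. With all arrays 7 of 55 genes were apart, all higher, and the median was 0.24. The list mean relative to P29 was between 0.36 and 0.50 on 5 arrays and -0.43 on P39 replicate 2. Without P39 replicate 2, an alternative chosen after seeing the data, 27 of the 55 were apart and higher, against 7.06% of all genes. Lce3b, a late envelope protein, was at 176, 211 and 228 at P29 and between 252 and 379.9 in early catagen, a difference of 0.67 (SE 0.15). Kprp, a keratinocyte proline-rich protein, differed by 0.98 (SE 0.23) and overlapped on P39 replicate 2 alone, with 3054 there against at most 3187 at P29. The genes that the study used as composition markers moved with that array as well. The study read Lor, Mef2a and Mef2c from other probe sets, whose differences were 0.34 (SE 0.31), 0.18 and 0.14. Lor was at 7936, 9509 and 8059.7 at P29, at 12532 to 20371 on 5 early catagen arrays and at 3051 on P39 replicate 2. The differences of Krt1, Krt10 and Flg were 0.42 (SE 0.66), 0.08 (SE 0.57) and -0.61 (SE 0.59), and their groups overlapped. Without P39 replicate 2 they were 0.93, 0.52 and -0.20 and that of Lor was 0.91. Then 4 of the 9 composition markers were apart, all higher, against 0 with that array, and their median was 0.49 against 0.19.

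**Figure D3:**
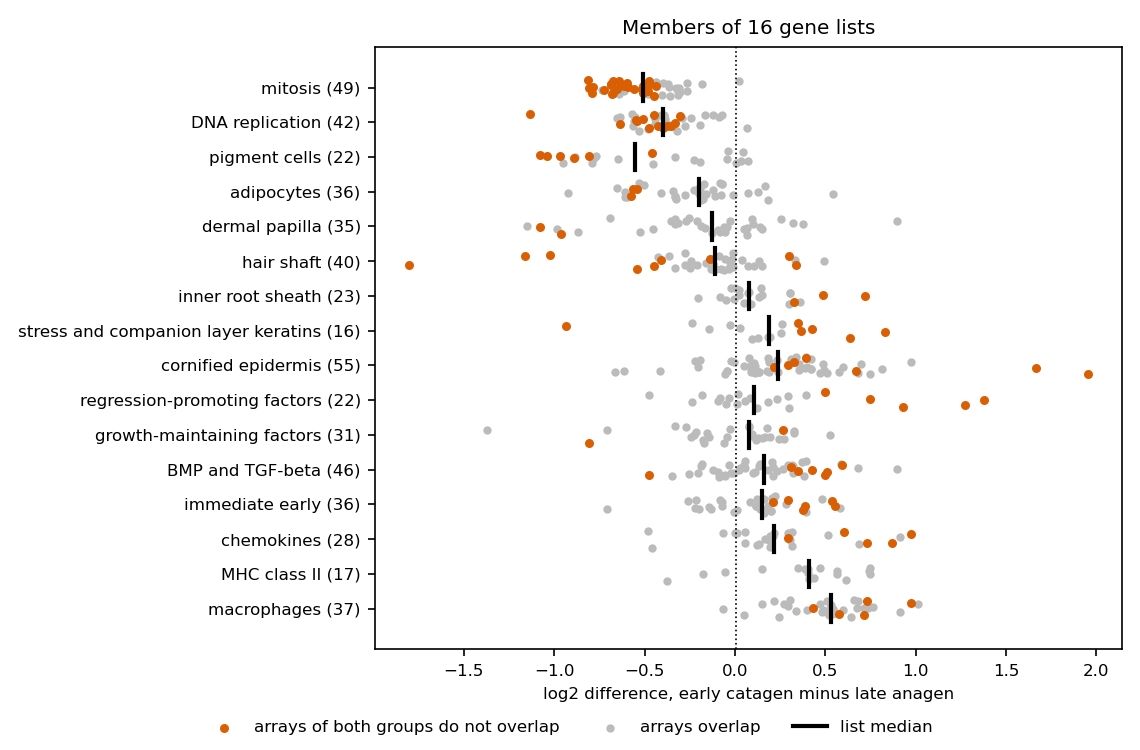
Log2 difference, early catagen minus late anagen, of the measured members of 16 gene lists (number of members in parentheses), 1 point for each gene. Orange points are genes whose arrays did not overlap, black bars the list medians, and the dotted line the median of all genes. The mitosis, DNA replication and pigment medians, at -0.51, -0.40 and -0.56, lie left of the line and the macrophage median, at 0.53, right of it.

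Among factors known to promote regression a few were apart and most overlapped. Of 22 measured members 5 were apart and higher, 6 had an unadjusted p under 0.05, all higher, and the median was 0.10. Fgf5, the ligand whose loss gives long hair, was at 262, 439 and 264 at P29, at 682 at P34 and between 564 and 1010.1 in early catagen (median 763). Its difference was 1.28 (SE 0.22, adjusted p 0.121), and the groups did not overlap. At P41 its mean was 76.1, below all P29 arrays. Thbs1, thrombospondin, an inhibitor of angiogenesis that also activates latent TGF-beta, was at 933, 672 and 797 against 1175 to 3616 (median 1839), a difference of 1.38 (SE 0.34, adjusted p 0.198). Unlike Fgf5 it stood higher again at P41, with a mean of 6252. Fas, the death receptor, was at 74.2, 81.4 and 84.3 against 129.6 to 226 (median 139.9), a difference of 0.93 (SE 0.18, adjusted p 0.148). Hr, which encodes Hairless, was at 2802, 2956 and 2773 against 3275 to 6735 (median 4841), a difference of 0.75 (SE 0.21). Tgfb1 differed by 0.50 (SE 0.16) without overlap, and its receptor gene Tgfbr2 by 0.39 (SE 0.16) with overlap, while another probe set of Tgfbr2 had 0.03. The other 16 members, Ptgds, Il1a, Il1b, Bmp4, Ntrk2, Ntrk3, Ngfr, Pth1r, Nr3c1, Esr1, Tnfrsf1a, Vdr, Cdkn1a, Tgfb2, Ntf5 and Stat3, had differences from -0.48 to 0.30 on the probe sets used. Other probe sets lay outside this range for 6 of them, with 1.04 (SE 0.33) for Ngfr, whose probe set used had -0.03, 0.77 (SE 0.24), 0.53 and 0.35 for Tgfb2, -0.69 for Ptgds, 0.45 for Esr1, 0.36 and 0.31 for Nr3c1 and 0.31 for Cdkn1a.

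Factors of the growing follicle split in direction. Of 31 measured members 16 lay higher and 15 lower, with 1 apart in each direction. Wnt10b, a WNT ligand of the matrix, was at 225, 202 and 156 at P29, between 57.5 and 157 on the P37 arrays and between 25.5 and 76.8 on the P39 arrays. The difference of -1.37 (SE 0.40, adjusted p 0.243) is a bound, since 1 array lay under the floor, and P37 replicate 1 overlapped with P29. Kitl, the ligand of the Kit receptor on melanocytes, was at 3215, 3006 and 3411 against 900.4 to 2977, a difference of -0.81 (SE 0.38). It was apart from P29, but by little on P39 replicates 2 and 3, at 2977 and 2916. Shh was at 1590.0, 1626 and 1205 against 494 to 1461 (median 972), a difference of -0.71 (SE 0.35), and overlapped. The epidermal growth factor ligands Hbegf and Ereg were higher by 0.52 (SE 0.18) and 0.26 (SE 0.09). The other 26 members, Lef1, Igf1, Vegfa, Gfra1, Fgfr2, Egf, Ghr, Sgk3, Ctnnb1, Wnt5a, Fgf7, Msx2, Egfr, Ctsl, Alpl, Igfbp4, Igfbp5, Krt17, Corin, Gdnf, Insr, Foxn1, Igf1r, Met, Tgfa and Igfbp3, overlapped, with differences from -0.33 to 0.33 on the probe sets used. Other probe sets lay outside this range for 8 of them. Those of Gfra1 and Vegfa had -1.10 (SE 0.24) and -0.78 (SE 0.17), those of Wnt5a 0.50 and -0.42, and those of Igf1r, Egfr, Fgf7 and Ghr 0.46, -0.49, -0.37 and -0.35. Igf1 had -0.37 and -0.35 on other probe sets, and Met, at 0.27, had -0.27 on another.

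**Figure D4:**
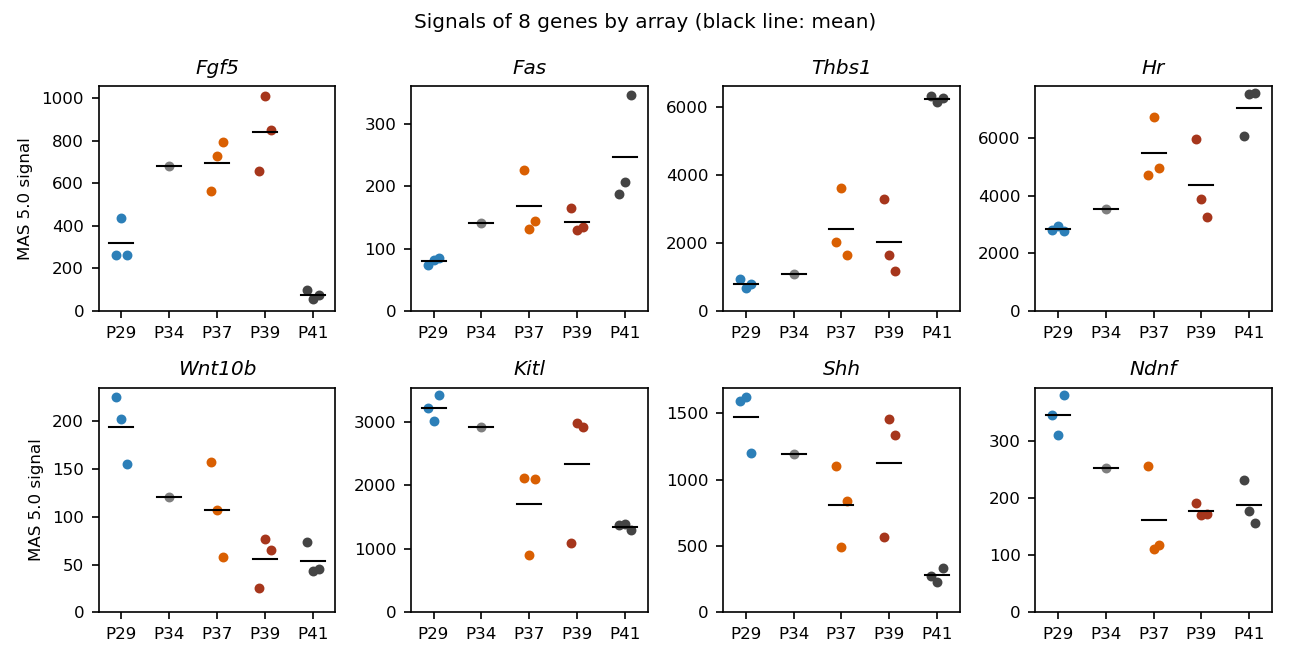
MAS 5.0 signal, on a linear axis from 0, of 8 genes on each array of P29, P34, P37, P39 and P41, with black lines at the group means. Fgf5 is highest in early catagen and at a mean of 76.1 at P41, Thbs1 reaches a mean of 6252 at P41, and Kitl and Shh spread widely over the P37 and P39 arrays.

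Of 35 measured papilla genes 24 lay lower and 11 higher, with a median of -0.12, 2 apart and lower and none apart and higher. Ndnf was at 346, 311 and 381 at P29 and between 112 and 257 in early catagen, with a median of 172. Hhip, a decoy receptor and target of hedgehog signalling, was at 230.5, 240.3 and 204 against 57.2 to 145 (median 131), a difference of -0.96 (SE 0.27, adjusted p 0.232). Rspo2, a ligand that potentiates WNT signalling, differed by -0.87 (SE 0.28), and Nkd1, an inhibitor and target of the same pathway, by -0.83 (SE 0.21). Another probe set of Nkd1 had 0.23. Of 46 genes of the BMP and TGF-beta list 6 were apart and higher and 1 lower, with a median of 0.16. Inhbb, an activin subunit, was at 1010.3, 1057 and 973 against 1217 to 1811, a difference of 0.59 (SE 0.15). Bmp1, a protease of matrix assembly, differed by 0.51 (SE 0.15) and Bmp2 by 0.43 (SE 0.13), both without overlap. In the FGF list Fgf5 and Sdc1, a syndecan, were the 2 of 23 genes apart and higher, and Sdc1 differed by 0.36 (SE 0.11), while Fgfr3 overlapped at 0.44 (SE 0.15). Among bulge genes Gas1 was at 2207, 1545 and 1559 against 2119 to 4782, a difference of 0.77 (SE 0.25), and Lgr5 differed by 0.53 (SE 0.20), both with overlap.

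Macrophage genes lay higher as a group, with few of them apart. Of 37 measured members 36 were higher, with a median of 0.53, 5 were apart and 14 had an unadjusted p under 0.05, all higher. Without P39 replicate 2, 10 were apart and 23 had such a p, all higher, where 7.06% and 9.01% of all genes did. Of the MHC class II genes 7 were then apart and 10 had such a p, against 0 and 4 with that array. The summed signal of the macrophage list ran from 28265 to 36970 at P29 and from 34906 to 80118 in early catagen. Ccr2, the receptor that brings monocytes into tissue, was at 122, 148 and 129 at P29 and between 191 and 419.8 in early catagen (median 262), a difference of 0.97 (SE 0.22, adjusted p 0.174). Its other probe sets had 0.21 and 0.42. Laptm5, a lysosomal protein of leukocytes, was at 524, 606 and 376 against 688 to 1071, a difference of 0.73 (SE 0.19). Another of its probe sets had -0.05. Fcgr2b, an inhibitory Fc receptor, differed by 0.55 (SE 0.17) and overlapped. P39 replicate 1 had the highest value of all 3 genes, and P39 replicate 2 the lowest of Ccr2 and Fcgr2b. Of 28 chemokine genes 5 were apart, all higher, among them Ccl8, a ligand of monocyte receptors, at 3249.8, 3700.3 and 2282 against 4113 to 7821, a difference of 0.87 (SE 0.22). Xcl1, a lymphocyte chemokine, differed by 0.73 (SE 0.18). Of 17 MHC class II genes none were apart, with a median of 0.41, and the differences of Cd209a, a lectin of dendritic cells, Ifi30, a lysosomal thiol reductase, and Epcam, found on Langerhans cells and epithelium, were 0.75, 0.39 and 0.35. Of 19 T and NK cell genes 1 was apart, with a median of 0.43, which was 0.03 with the floor set at the median signal.

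Immediate early genes were higher in part. Of 36 members 6 were apart and 8 had an unadjusted p under 0.05, all higher, with a median of 0.15. Jun was at 3114, 3369.5 and 2505 at P29 and between 3940.4 and 4820.2 in early catagen, a difference of 0.55 (SE 0.12), and Egr1 at 4354, 5091 and 3942 against 5558 to 7859.5, a difference of 0.54 (SE 0.13). Zfp36, which speeds the decay of such transcripts, differed by 0.39 (SE 0.11). Of 52 apoptosis genes 2 were apart and higher, Fas and Bag3, a co-chaperone (0.53, SE 0.15), and 1 lower. Casp1, the inflammatory caspase, differed by 0.60 (SE 0.18) with overlap. Among 23 clock genes Arntl was apart and higher, at 372, 327 and 377 against 466 to 606, a difference of 0.59 (SE 0.11). Its other probe set gave -0.14. Timeless, which also serves DNA replication, was apart and lower (-0.54, SE 0.16), and Cry1 overlapped at 0.66 (SE 0.29).

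Of 36 measured adipocyte genes 31 were lower, with a median of -0.20 and 3 apart. Agpat2, an enzyme of triglyceride synthesis, was at 1275, 1178 and 1288 at P29 and between 716 and 1095 in early catagen, a difference of -0.54 (SE 0.14), and Gpd1, which supplies glycerol phosphate, differed by -0.57 (SE 0.17). Thrsp, a regulator of lipogenesis, differed by -0.92 (SE 0.26) with overlap. The summed signal of this list was 133089 to 173142 at P29 and 119479 to 147891 in early catagen. Dermal fibroblast genes had a median of 0.12, with 2 of 45 apart and higher (7 without P39 replicate 2), summed signals of 186699 to 262071 and 155623 to 290098, and muscle genes one of 0.10, with 208497 to 295015 and 221894 to 326271, ranges that overlapped. With an array left out these medians ran from -0.03 to 0.21 and from -0.02 to 0.19, below 0 for fibroblast genes without P29 replicate 3 and for muscle genes without P29 replicate 2. The summed signals of the 19 Schwann cell genes did not overlap, at 17053 to 18094 and 19588 to 22116, with a list median of 0.04. The study's further composition markers Vim, S100a4, Mef2a, Mef2c and Des had differences of -0.11, 0.54, 0.19, 0.09 and 0.44, all with overlap. The part of tissue composition in the differences above was not tested. Fap, a protease of activated fibroblasts, was apart and lower (-0.65, SE 0.16), and Adam15 apart and higher (0.34, SE 0.09), although the other 3 probe sets of Adam15 had -0.23, -0.09 and -0.06. Mt1 and Mt2, the metallothioneins, were at 7081 to 9225 and 11138 to 12736 at P29 against 3118 to 7054 and 4554 to 9866 in early catagen, apart and lower, with differences of -0.72 and -0.69. Mt4, the form of stratified epithelia, overlapped at -0.41. In the matrix list Mmp11, stromelysin 3, had a mean of 80.8 at P29, values from 80.4 to 762 (median 344) in early catagen and a mean of 2932 at P41. Its groups overlapped, with a difference of 1.88 (SE 0.66). Slc4a1, the anion exchanger of red cells, was apart and higher by 0.92 (SE 0.16), the only gene apart of 8 in the red cell list.

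Most of the remaining lists lay near the median of all genes or held few genes apart. Sodium transport genes had a median of 0.19, with 5 of 35 apart and higher, against 4.29% of all genes, and 1 lower. At an unadjusted p under 0.05 by limma 9 of them were higher and 2 lower. Lysosome and clearance genes had a median of 0.17, with 4 of 57 apart and higher. Without P39 replicate 2, 10 genes of each of these lists were apart and higher, against 7.06% of all genes. Interferon response genes had a median of 0.19 with 0 of 42 apart, against 5 with an unadjusted p under 0.05 by limma, all higher. Hair transcription factors had 3 of 37 apart and higher, Hr among them. WNT genes had a median of -0.06, with 1 of 47 apart and higher and 2 lower, and hedgehog genes one of -0.09 with 1 of 16 apart, Hhip. Lipid synthesis genes had 3 of 33 apart and lower. Genes of respiration, heat shock and the sebaceous gland had medians of 0.01, -0.04 and 0.01.

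Each day of early catagen was also set against the same 3 P29 arrays, so that these contrasts share their controls. At P37 0 of 26988 probe sets (0%) had an adjusted p under 0.05 by limma, with 3472 at an unadjusted p under 0.05. At P39 1 did (0.00371%), with 2414 at an unadjusted p under 0.05. This probe set has no single gene symbol. Its signals were 148, 124 and 122 at P29, 55.6, 50.5 and 48.2 at P37 and 19.3, 44.9 and 36.3 at P39, and at P39 it fell, with a log2 difference of -1.77 (SE 0.14, adjusted p 0.022) that is a bound since 1 array lay under the floor. The mitosis median was -0.60 at P37 and -0.46 at P39, the macrophage median 0.47 and 0.58, and the median of the papilla genes -0.08 and -0.18. Fgf5 differed by 1.14 at P37 and 1.41 at P39, Thbs1 by 1.53 and 1.23, Hr by 0.93 and 0.57, Wnt10b by -0.96 and -1.78 and Kitl by -1.02 and -0.60.

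The same change of phase after depilation was read in other mice. There 0 of 26988 probe sets (0%) had an adjusted p under 0.05 in D17 against D8 and D12 by limma, with 597 at an unadjusted p under 0.05. The test of the difference between the cycles gave 0 (0%) as well, with 1045 at an unadjusted p under 0.05. Among the 552 genes higher and apart in the natural cycle, 392 (71%) were also higher at D17, against 48.6% of all genes, and 18 (3.3%) were apart there in the same direction, against 3.6%. Among the 503 lower ones 347 (69%) were lower at D17, against 51.3%, and 29 (5.8%) were apart, against 3.9%. The arrays within each depilation day differed from one another. Kitl was at 2678, 2939, 2965 and 1089 on the D8 and D12 arrays and at 938 and 2771 on the D17 arrays, and Hr at 2595, 2541, 2480 and 6266 and at 6413 and 2693. D12 replicate 2 and D17 replicate 1 were thus alike in both genes, and D17 replicate 2 lay near the other D8 and D12 arrays. The Kitl signal of D17 replicate 2 was still within the early catagen range of the natural cycle, as were those of the other D8 and D12 arrays. Its Hr signal was under the early catagen range of Hr. The mean of the pigment cells genes was -0.93 and -0.996 on D12 replicate 2 and D17 replicate 1. On D17 replicate 2 it was -0.10, also within the early catagen range. The shares of the same direction rested on D17 replicate 1: without it they were 55.6% of the higher genes, against 50.3% of all genes, and 48.7% of the lower genes, against 49.6%. Without D12 replicate 2 they were 75% and 71.6%, and without D17 replicate 2 79.3% and 76.5%.

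The list medians after depilation changed with the arrays left out. With all 6 arrays the medians after depilation were -0.24 for mitosis genes, of which 46 of 49 were lower, -0.16 for DNA replication, -0.39 for pigment cells and -0.30 for the papilla genes. Without D17 replicate 1 the medians of mitosis, DNA replication, pigment cells and papilla genes were -0.09, 0.04, 0.13 and -0.11. Without D12 replicate 2 they were -0.46, -0.34, -0.58 and -0.29, and without D17 replicate 2 -0.41, -0.37, -0.78 and -0.41. Macrophage genes had a median of -0.14 with all 6 arrays, with 10 of 37 higher. Without D17 replicate 1 it was -0.23, with 3 higher, without D12 replicate 2 -0.15, with 10 higher, and without D17 replicate 2 0.05, with 22 higher. Hair shaft genes had a median of 0.55 with all 6 arrays, with D8 replicates at -1.47 and -2.07 relative to P29. Of single genes, Bmp2 was apart and higher after depilation too, by 0.42 (SE 0.19), Olr1 by 0.67 (SE 0.24), and Orc1, Rad51c and Wnt10b were apart and lower, with -0.32, -0.39 and -0.39. None of these passed the adjusted test.

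**Figure D5:**
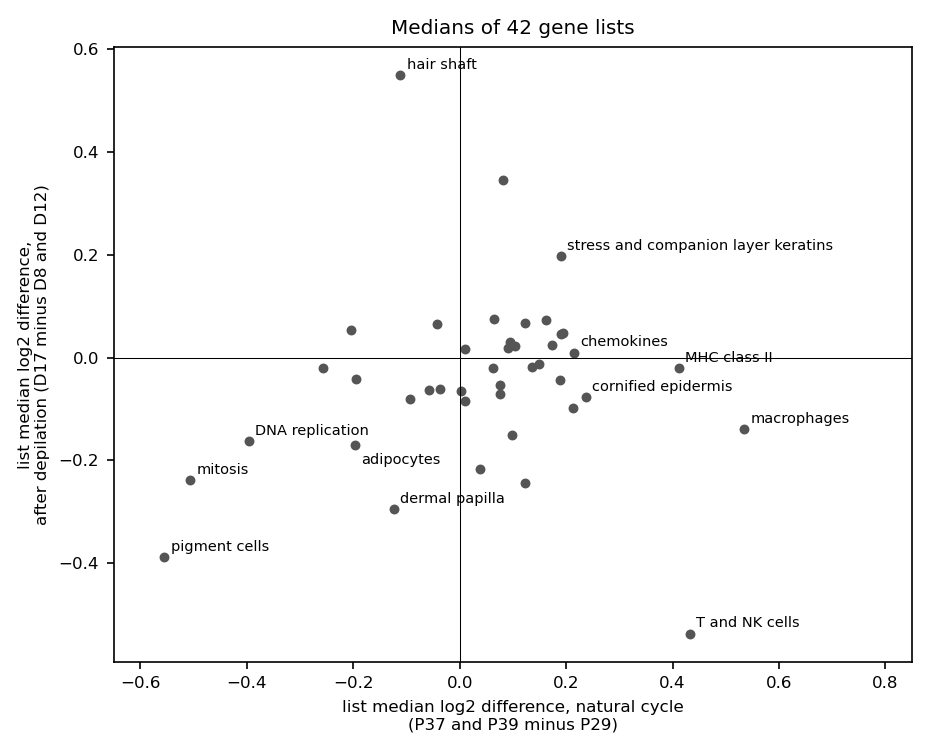
Median log2 difference of early catagen minus late anagen for each of 42 gene lists, in the natural cycle (horizontal axis) and after depilation (vertical axis); 12 lists are named and some share members. Mitosis, DNA replication and pigment cells lie below 0 in both and macrophages at 0.53 in the natural cycle and -0.14 after depilation, with all 6 depilation arrays; without D17 replicate 1 the values of DNA replication and pigment cells after depilation were 0.04 and 0.13.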

How the data were processed

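RNA of upper-mid dorsal skin, extracted with Trizol, was measured by the authors on Affymetrix whole-genome mouse arrays. The deposited intensity values are signals that the authors computed with MAS 5.0 (version not given in the sources used here), and they were taken on their linear scale. Levels of different probe sets are not comparable, and low signals are noisy. Values below a floor of 34.6 (the 25th percentile of the table) were therefore set to it, and log2 was taken. A probe set entered the tests if it exceeded the median of its array on 3 or more of the 33 arrays, as 26988 of 45037 did. On the 9 arrays between 1.22% and 1.98% of these lay under the floor, and the number of arrays limits the precision. Probe sets with 1 gene symbol (34945, 77.6%) gave 12867 genes, each read from its probe set of highest mean; 932 had several symbols and 9160 none.

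limma 3.58.1 (R 4.3.3) was fitted to the 9 arrays with 2 group means, to the same arrays with 1 mean per day, to the 6 depilation arrays, and to all 15 for the difference between cycles. P-values were adjusted over all kept probe sets. With 1 mouse per array the p-values rest on the spread between mice. Where P37 and P39, or D8 and D12, share a group mean, that spread also holds the difference between the days. The fitting was tested on simulated data. Xist and Y-linked genes were checked against the sex labels and matched on all 9 arrays, and 0 sample columns were left unused. Named genes were the 12 largest differences in each direction among genes with groups apart, an unadjusted p under 0.01 and a group wholly above the floor, genes from the leading 3 of each list by p, the members of the regression and growth lists, and the study's composition markers; Tyr, Pmel, Krt36, Krt82, Krtap4-7, Mmp11, Mt2, Krt5, Mki67, Cdk1 and Smc2 were added after their values were seen. Members and the 42 gene lists (1585 entries, 1351 measured) were chosen with earlier results of these data known. Alternatives covered the floor, filter, scaling, choice of probe set, sex, array weights, further arrays in the fit and each array left out.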

Additional observations from a re-analysis of the deposited data

Results flagged for a closer look

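Among the 103 genes with printed values, 16 of 206 groups held an array far from the rest by Dixon's ratio at its 95% level, where chance gives about 1 in 20. Of these, 6 were on P39 replicate 2. There Krt1 was at 716, Krt10 at 3728, Lor at 3051, Nlrp10 at 514 and Ifi30 at 1916, each the lowest of the 6 early catagen arrays, and Mt4 was the highest at 17302. On P37 replicate 2 Hhip was lowest at 57.2 and Des highest at 2479. On P37 replicate 1 Krtap5-2 and Krtap5-3 were highest at 7710.4 and 431, nearest to P29, and Padi1 was lowest at 3939. On P37 replicate 3 Thrsp was highest at 1394. Among the 4 late anagen arrays after depilation, D12 replicate 2 was highest in Hr at 6266 and in Hbegf at 832 and lowest in Kitl at 1089, and D8 replicate 1 was highest in Vim at 9080.3.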

How the results depend on the processing

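The number of probe sets past an adjusted p of 0.05 depended on the fit. For early catagen against late anagen it was 0 as reported and also with sex as a covariate, the replicate block, 1 probe set for each gene and the adjusted ANOVA. It was 43 with the 23 natural-cycle arrays in the fit, 29 with all 33 arrays, 29 with the floor at the median, 24 without a filter, 18 with array weights, 16 with a stricter filter, 11 with median centring, 7 with P27 and P41 added, 2 with P34 added to late anagen, 2 with the floor at the 10th percentile, 2 with quantile normalization, and 1 each with the asinh scale and with separate means for the days. Leaving out each array gave 0 to 6: P37 replicate 1 left out gave 6, P39 replicate 1 gave 4, P29 replicate 1 gave 2 and P29 replicate 3 gave 1. For P37 the count was 10, 4, 11, 1 and 1 with 23 arrays, 33 arrays, no filter and the floor at the 10th percentile or the median, and 0 to 2 with an array left out. For P39 the count of 1 became 7 with 23 arrays, 11 with 33 arrays, 8 without a filter, 2 with the floor at the 10th percentile and 0 with P34 added, the asinh scale, 1 probe set for each gene, the P29 and P39 arrays alone, sex, the stricter filter and the replicate block, and 0 to 2 with an array left out. After depilation it was 1 with 1 probe set for each gene, 17 without a filter and 0 to 0 with an array left out. The difference between cycles gave 14 without a filter, 4 with the floor at the median, 1 with the asinh scale or the floor at the 10th percentile, and 0 to 1 with an array left out. The cause of these shifts was not tested.

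Genes apart numbered 210 higher and 211 lower with P34 added, and 599 to 1143 and 567 to 1033 with an array left out. Of the 103 genes with printed fits 43 had other probe sets, and for 37 of these all had the same direction (68 of 76 probe sets). Less than 50% of the printed difference was found on another probe set of Ccr2 (0.21 and 0.42), Gas1 (0.21), Fgfr3 (0.12), Hbegf (0.21), Hhip (-0.41), Orc1 (-0.51), Smc4 (-0.12), Fcgr2b (0.27), Epcam (0.13), Laptm5 (0.30 to 0.36), Mt1 (-0.33), Tgfbr2 (0.03) and Mef2c (0.02). Direction turned for other probe sets of Adam15 (-0.226, -0.0946 and -0.0583), Arntl (-0.14), Laptm5 (-0.0503), Mef2a (-0.31), Nkd1 (0.23) and Vim (0.0209), for Vim with P34 added (0.0515) and for Krt10 with sex (-0.0256). With an array left out Krt10 ran from -0.0736 to 0.52 and Mef2c from -0.0056 to 0.15. The replicate block left 0 probe sets in the main comparison, and deviations of arrays of the same number correlated at -0.18 to 0.04, so the numbers do not pair the mice.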
